A study of Mus musculus with 9 samples.

Results

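The Hedgehog pathway genes described here were 9 of the 32285 mouse genes listed in every library, found by their symbols: the receptors and co-receptors Ptch1, Smo, Boc and Gas1, the inhibitors Sufu and Hhip, and the transcription factors Gli1, Gli2 and Gli3. Their unique molecular identifiers (UMIs, 1 for each RNA molecule captured) were summed over the cells of each mouse and over the marker-gated cell types of each mouse, and are given as CPM, the count in every 1000000 UMIs of the same cells. Droplet-based scRNA-seq with 5′ chemistry had been run on the brains of mice aged 6 to 8 weeks. The 5 EPZFTA-RELA tumors came from NestinCreERT2;Fus1 mice, in which a conditional fusion of ZFTA (C11orf95) and RelA at the Rosa26 locus is switched on by CreERT2 under the Nestin promoter, active in embryonic radial glia. The 4 controls were NestinCreERT2;TdT brains, which share the CreERT2 driver and carry a TdTomato reporter in place of the fusion. Tissue was dissociated, cleared on Percoll, and sorted with DAPI and anti-Ter 119, a red cell antibody. Nothing in the labels says that each library came from a separate litter or culture, so p-values measure the spread between these libraries.

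Hedgehog ligands bind Ptch1, which otherwise holds the membrane protein Smo inactive. Once released, Smo signals through the primary cilium to free the Gli factors from Sufu, and the active Gli proteins switch on targets that include Gli1, Ptch1 and Hhip, so these 3 genes are commonly read as a gauge of pathway output. Boc and Gas1 are cell surface co-receptors that help ligand binding, and Hhip is a surface protein that sequesters the ligand. Gli2 acts mainly as an activator and Gli3 mainly as a repressor. In the brain the pathway is known for its role in neural progenitors of the embryo, in adult stem cells and in mature astrocytes, which receive Shh from neurons.

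Depth differed between the groups. The deposited tables held 75222 to 86516 barcodes and 101057563 to 178074108 UMIs for the controls, against 9001 to 26341 barcodes and 14967428 to 69391807 UMIs for the tumors. After filtering, 20408 control cells (4026 to 6365 a mouse) and 15894 tumor cells (1722 to 5099 a mouse) were kept, and any pair of the libraries other than control 4 shared 1 to 9 cell barcodes. Reads of the fusion numbered 20, 363, 12, 1152 and 670 UMIs in tumors 1 to 5 and 0 in controls 1 to 3; they were not read in control 4, where 32287 features were listed for 32289 rows and 80865 barcodes for 80887 columns. The mouse genes of control 4 stood in the same order as in the other libraries and were taken by row number. In tumor 4, 44.5% of the cells gated as microglia or macrophages held a UMI of the fusion or of the luciferase it carries, against 1.76% in tumor 3. Tumor 4 had 668 cells in that gate and 405 in the microglia clusters, and the parts of free RNA and of tumor cells caught by the gate were not tested.

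The stretches upstream of the 3 members with the largest rises in tumors are shown first, because Gli proteins bind a site of known letters. They were taken from RefSeq (GRCm38.p6, the same assembly as mm10) as the 250 bases before the listed start, where 7 of the 9 members had an entry; Boc and Gli1 had none. The Gas1 window is chr13:60177536-60177785 on the minus strand, the Smo window chr6:29735247-29735496 on the plus strand, and the Gli2 window chr1:119053620-119053869 on the minus strand, inside the longer span annotated for Gli2. Capitals mark a match to the core of the Gli site.
Gas1: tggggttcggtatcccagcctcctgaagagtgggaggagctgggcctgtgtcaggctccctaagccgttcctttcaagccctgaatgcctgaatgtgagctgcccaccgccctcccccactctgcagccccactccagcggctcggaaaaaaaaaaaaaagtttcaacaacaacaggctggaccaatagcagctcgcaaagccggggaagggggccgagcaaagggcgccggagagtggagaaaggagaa
Smo: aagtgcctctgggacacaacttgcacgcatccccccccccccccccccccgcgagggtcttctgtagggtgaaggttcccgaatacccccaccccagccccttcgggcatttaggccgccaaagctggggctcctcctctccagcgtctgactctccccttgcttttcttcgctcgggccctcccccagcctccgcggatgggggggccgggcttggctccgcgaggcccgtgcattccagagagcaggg
Gli2: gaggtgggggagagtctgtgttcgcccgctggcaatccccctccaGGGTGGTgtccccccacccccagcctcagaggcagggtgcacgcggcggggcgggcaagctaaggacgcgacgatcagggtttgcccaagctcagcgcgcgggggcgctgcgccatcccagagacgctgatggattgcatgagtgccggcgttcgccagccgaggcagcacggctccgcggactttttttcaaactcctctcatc
The Gli core was searched as ACCACCC or its reverse complement GGGTGGT, which lies within the full site searched as GACCACCCA or TGGGTGGTC. The core was found in 1 of the 7 windows, that of Gli2, starting 205 bases before the start, and in 3.92% of all 32851 windows of this length. The full site was found in none of the 7 and in 0.225% of all windows. A match of letters is a description and not a bound site, and windows without one say nothing about the factor.

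Over all kept cells, 5 of the 9 members were higher in tumors and 0 were lower: Gas1, Gli2, Smo, Gli3 and Boc. The genes usually read as output, Ptch1, Hhip and Gli1, did not pass the test. With DESeq2, or without tumor 1, 2 or 3, 6 members passed, and the additional one was Sufu or 1 of these. The background was high, with 32.2% of the 17598 genes tested higher in tumors and 29.3% lower at an adjusted p under 0.05 (edgeR quasi-likelihood test, Benjamini-Hochberg). The median log2 fold change was 1.20 over the 9 members and 0.043 over all genes tested. Because these are sums over a whole tissue, a change in the number of cells of a type and a change in RNA per cell cannot be told apart here. The mix of cells differed widely. Of the clusters described below, those of neurons held 88.0% of control and 11.1% of tumor cells, and the fusion-allele clusters held 56.4% of tumor cells. The part of this mix in the rises was not tested.

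Among the receptors, Smo, the signal-transducing membrane protein, was at 7.34, 7.90, 7.50 and 6.58 CPM in controls 1 to 4 and at 21.0, 35.4, 31.2, 38.9 and 45.5 CPM in tumors 1 to 5. Every tumor lay above every control, and the log2 fold change was 2.52 ± 0.30 (SE; adjusted p = 0.000243, edgeR). Ptch1, the ligand receptor, was at 48.5, 50.1, 56.3 and 48.9 CPM in controls and at 67.8, 54.8, 49.7, 44.6 and 115 CPM in tumors. The groups overlapped, with tumor 5 alone far above the controls and tumor 4 the lowest of all 9 libraries. Its log2 fold change was 0.64 ± 0.28 (SE; adjusted p = 0.0743, edgeR).

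Gas1, a co-receptor first known from growth-arrested cells, showed the widest difference of the 9. It was at 6.32, 6.56, 3.97 and 5.34 CPM in controls and at 35.2, 365, 70.2, 327 and 146 CPM in tumors. The lowest tumor was above the highest control and the tumors spread widely among themselves, with a mean of 189 ± 150 CPM (SD, n = 5) against 5.55 ± 1.17 CPM (SD, n = 4). The log2 fold change was 5.48 ± 0.84 (SE; adjusted p = 0.000666, edgeR). Boc, the other co-receptor, was at 8.79, 8.28, 7.32 and 9.20 CPM in controls and at 12.9, 15.7, 6.95, 23.3 and 18.4 CPM in tumors. Tumor 3 fell below all 4 controls while the other tumors lay above them, for a log2 fold change of 1.20 ± 0.38 (SE; adjusted p = 0.0204, edgeR). The call for Boc was lost without control 2 (adjusted p = 0.051) or control 3 (adjusted p = 0.058) in the same edgeR test.

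Neither inhibitor passed the test. Sufu, which holds Gli proteins in the cytoplasm, was at 11.0, 8.93, 6.87 and 8.60 CPM in controls and at 10.5, 6.69, 14.9, 13.1 and 12.1 CPM in tumors. Tumor 2 was the lowest of all libraries and tumors 3 to 5 were above every control (log2 fold change 0.61 ± 0.25, SE; adjusted p = 0.056, edgeR). Hhip was at 9.45, 7.16, 6.05 and 6.63 CPM in controls and at 12.5, 3.43, 5.25, 0.665 and 13.5 CPM in tumors. Tumors thus lay on both sides of the controls, 2 above and 3 below, and the fitted change of 0.12 ± 0.64 (log2, SE; adjusted p = 0.876, edgeR) has a wide interval around it.

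The 3 Gli factors parted. Gli2 was at 1.24, 1.07, 1.77 and 1.61 CPM in controls and at 11.5, 12.4, 7.95, 16.3 and 26.2 CPM in tumors, with no overlap (log2 fold change 3.68 ± 0.44, SE; adjusted p = 0.000252, edgeR). Gli3 was at 6.98, 5.81, 6.68 and 6.49 CPM in controls and at 13.7, 29.3, 11.6, 25.3 and 9.47 CPM in tumors, also without overlap (log2 fold change 1.79 ± 0.43, SE; adjusted p = 0.00552, edgeR). Gli2 was highest in tumor 5, the tumor in which Gli3 was lowest. Gli1 rested on few molecules: 22, 32, 25 and 32 UMIs in controls, or 1.60, 1.49, 1.58 and 1.47 CPM, and 40, 3, 9, 1 and 40 UMIs in tumors, or 6.78, 0.178, 1.28, 0.0266 and 2.49 CPM. Tumors 1 and 5 were above all controls and the other 3 below them (log2 fold change 0.50 ± 0.99, SE; adjusted p = 0.678, edgeR). The tumors with the most Gli1, 1 and 5, were also the 2 with the most Ptch1 and the most Hhip. These are sums over unlike cells, and in tumor 1, 26 of the 40 Gli1 UMIs lay in the astrocyte clusters described below. Hhip in the same tumor was higher in gated oligodendrocytes than in the fusion-allele clusters, both also described below.

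**Figure D1:**
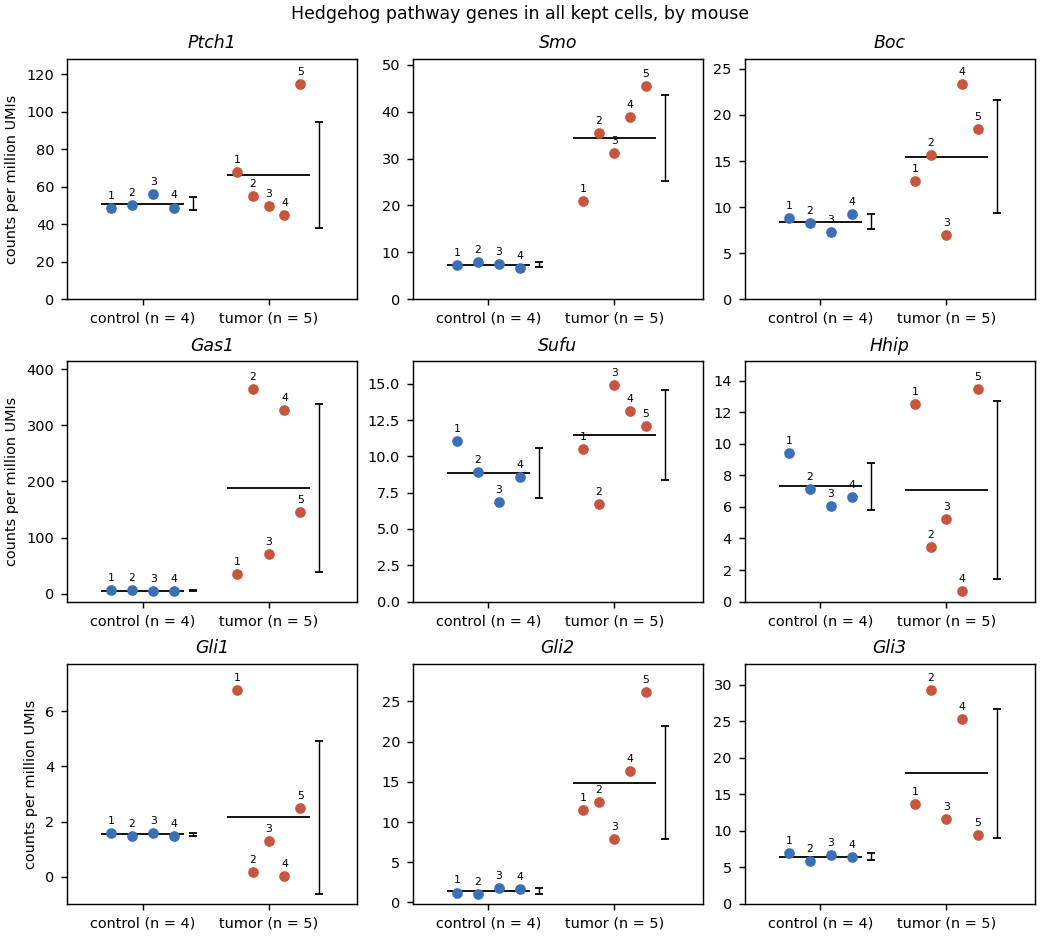
Level of each Hedgehog pathway gene in all kept cells, in CPM on linear axes, with 1 point for each of 4 control (blue) and 5 tumor (red) mice, numbered as in the text; lines are means and bars SD. Smo, Gas1, Gli2 and Gli3 showed no overlap between the groups, and for Gli1 and Hhip the tumors lay on both sides of the controls.

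Where the members' RNA lay was read next from Leiden clusters of the kept cells. In 7 clusters at least 30% of the tumor cells held a UMI of the fusion or luciferase (34.0% to 86.1%), and the next cluster had 22.3%. In tumor 4 such a UMI also stood in 44.5% of the cells gated as microglia or macrophages and 24.2% of those gated as endothelial. The part of free RNA in these shares was not tested. The 7 are called fusion-allele clusters, and the 30% was set after the data were seen. They held 8967 of the 15894 tumor cells and 67.7% of their RNA. They held 95.2% of the Gas1 UMIs of the tumors, 87.0% of those of Boc, 86.9% of Gli3, 86.8% of Gli2, 79.9% of Smo, 74.7% of Ptch1 and 70.3% of Sufu. The shares for Hhip (58.8%) and Gli1 (29.0%, 27 of 93 UMIs) were below the share of RNA over the pooled tumors, where tumors with more cells weigh more. Tumor by tumor, Gli1 in these clusters was at or a little above its level in all kept cells in tumors 1 to 4 and below it in tumor 5. The astrocyte clusters, the 2 clusters outside the fusion-allele clusters in which the astrocyte gate was the commonest, held 3.21% of the RNA of the tumors and 52.7% of their Gli1 UMIs. That gate was also the commonest in 3 of the 7 fusion-allele clusters, at 60.8%, 53.0% and 63.8% of their gated cells. The members were left out of the genes that built the clusters, but other genes of the same cells built them, so these shares are a description with no test.

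In the fusion-allele clusters Gli1 was at 8.38, 0.191, 1.54, 0.0300 and 1.35 CPM in tumors 1 to 5, from 8, 2, 2, 1 and 14 UMIs. Tumor 1 alone stood well above the rest, on a count of 8. In the same cells Gli2 was at 30.4, 17.4, 15.4, 18.0 and 34.3 CPM and Smo at 34.6, 44.9, 42.2, 41.6 and 53.6 CPM, so both were present in all 5 tumors, with Gli2 in tumors 1 and 5 above the other 3. Gli3, at 31.4, 42.0, 16.1, 27.7 and 11.0 CPM, and Boc, at 16.8, 22.6, 6.91, 25.6 and 23.3 CPM, varied more between tumors. Ptch1 was at 81.7, 71.8, 64.5, 47.7 and 132 CPM, lowest in tumor 4 and highest in tumor 5. Hhip was at 5.24, 2.96, 0, 0.689 and 17.6 CPM; the 0 of tumor 3 allows up to 2.30 CPM, the level of 3 UMIs in those cells. Gas1 was at 124, 556, 220, 363 and 208 CPM, and Sufu at 15.7, 7.07, 16.9, 13.8 and 10.6 CPM.

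Of the cluster classes with at least 3 control mice, the astrocyte clusters had the highest mean Gli1 in controls, 34.5, 18.7, 26.6 and 27.4 CPM (12, 12, 14 and 16 UMIs), and in tumors 1, 2, 3 and 5 they gave 23.8, 9.10, 3.35 and 33.1 CPM (26, 1, 3 and 19 UMIs). Tumor 4 had a single such cell and gave no value. Ptch1 was at 207, 184, 338 and 212 CPM in the control astrocyte clusters and at 160, 118, 151 and 190 CPM in those of the tumors. Gli2 was at 17.2, 15.6, 24.7 and 32.5 CPM against 20.1, 9.10, 36.9 and 36.6 CPM, and Smo at 66.1, 35.8, 51.3 and 36.0 CPM against 32.0, 72.8, 45.8 and 47.0 CPM. For these genes the astrocyte clusters of the groups overlapped, or nearly so, whereas Gas1 at 20.1, 28.0, 19.0 and 22.3 CPM against 33.8, 173, 176 and 69.7 CPM did not overlap. One cluster held 650 of the 653 control cells of this class and another 1066 of the 1069 tumor cells, so cluster and group cannot be told apart. In the fibroblast clusters of 3 controls, 79 cells in all, Gas1 ranged from 12.8 to 203 CPM on 34 UMIs and Hhip from 12.8 to 313 CPM on 38 UMIs, both above every other control class by their means.

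**Figure D2:**
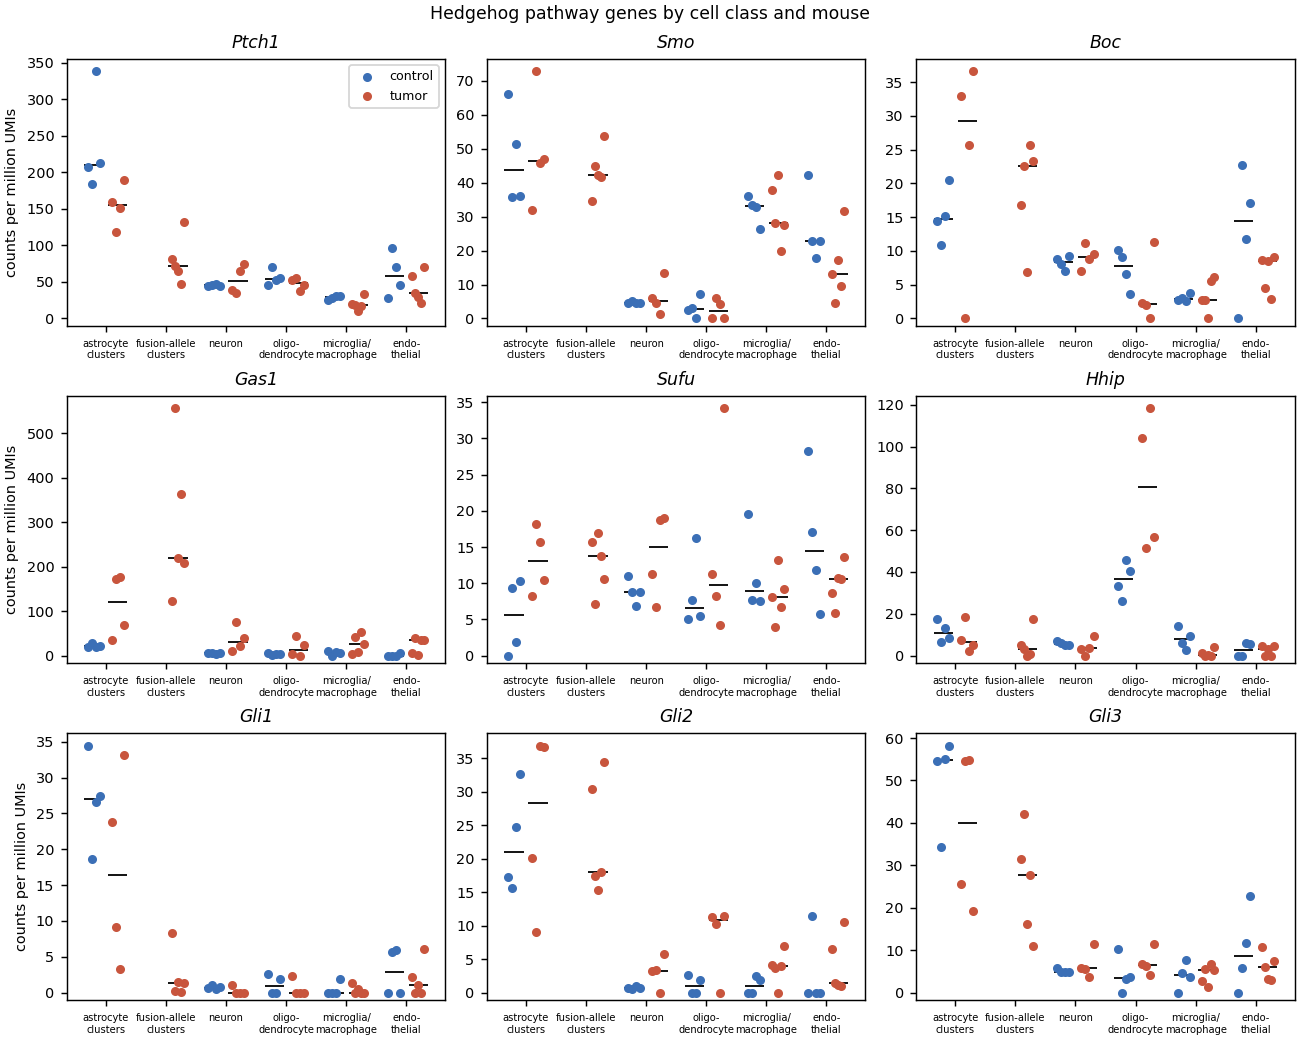
Level of each Hedgehog pathway gene in 6 classes of Leiden clusters, in CPM on linear axes, with 1 point for each mouse with at least 20 cells (controls blue, tumors red) and lines at the medians; fusion-allele clusters are shown for tumors alone. Of these classes, Gli1 was highest in astrocyte clusters, Gas1 in fusion-allele clusters and Hhip in oligodendrocyte clusters by their medians.

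Within controls, the astrocyte-gated cells (at least 3 of 8 markers such as Aqp4 and Gja1) were compared with all other kept cells of the same mouse to place the members in normal glia. The held-out markers Fgfr3, Gfap and Aldoc were 2.96, 1.65 and 1.37 times higher in the gated cells, a modest contrast. Of the 9 members, 7 were higher in the gate, against 6.56% of the 15842 genes tested. Gli1 had the widest difference at 2.23 ± 0.31 (log2, SE; adjusted p = 2.1e-07, edgeR with mouse as a block). Gli2 followed at 1.33 ± 0.35, Gli3 at 1.27 ± 0.16, Ptch1 at 0.79 ± 0.073, Smo at 0.74 ± 0.16, Gas1 at 0.67 ± 0.19 and Boc at 0.48 ± 0.16. Sufu (-0.071 ± 0.16) and Hhip (-0.11 ± 0.18) did not pass the test. Only 4 members passed without control 4, and 3 with a gate of at least 2 markers.

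Between tumor and control within the same astrocyte gate, 6 of the 9 members were higher, against 28.5% of the 13497 genes tested, and 0 were lower. Gas1 was at 5.37, 10.5, 4.54 and 8.07 CPM in controls and at 61.3, 500, 160, 415 and 190 CPM in tumors (log2 fold change 5.44 ± 0.74, SE; adjusted p = 0.00039, edgeR). Gli2 was at 0.895, 2.21, 3.14 and 3.67 CPM in controls and at 25.3, 17.5, 35.0, 21.2 and 31.9 CPM in tumors (3.42 ± 0.33). Neither gene overlapped between the groups. Gli2 rested on 34 control UMIs and came into this test through its tumor counts, so nothing is read from its place among the 6. Smo (2.17 ± 0.30), Gli3 (1.59 ± 0.38), Boc (1.56 ± 0.25) and Sufu (0.83 ± 0.29; adjusted p = 0.031, edgeR) also passed. The call for Sufu was lost without control 2, control 3 or tumor 4 (adjusted p = 0.0727, 0.0763 and 0.06, edgeR) and with library size scaling (adjusted p = 0.0967, edgeR), and that for Gli3 with a gate of at least 4 markers. Ptch1 (0.56 ± 0.27), Gli1 (0.38 ± 1.04) and Hhip (0.34 ± 0.89) did not. Without tumor 4, where the call for Sufu was lost, 6 members still passed, so at least 1 of these 3 did. With Leiden clusters in place of the gate 3 members passed, Ptch1 among them as lower, and Gli3 changed sign.

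The gate did not hold one kind of cell in either group. Of its tumor cells, 5.95%, 36.5%, 8.23%, 79.3% and 31.0% in tumors 1 to 5 held a UMI of the fusion or luciferase. In controls it held 3027 cells, with 34 UMIs of Gli2 and 129 of Smo. The 653 cells of the control astrocyte clusters held 48 and 94. The part of such mixing in the differences between tumor and control was not tested. With the astrocyte clusters, which leave out fusion-allele clusters, in place of the gate, 1 of 7 tested members passed, where 15.3% of 8177 genes were higher. It was Gas1, at 2.22 ± 0.43 (log2, SE; adjusted p = 0.001, edgeR). There Gli2 was at 0.40, Smo at 0.014, Gli3 at -0.44, Ptch1 at -0.48 and Gli1 at -0.38, none of which passed. Gas1 in free RNA, read from the 3000 barcodes with the fewest UMIs of each library as a stand-in that may hold cells too, was at 5.45 to 7.57 CPM in controls and at 14.8, 194, 44.0, 210 and 88.5 CPM in tumors 1 to 5. The part of free RNA in the remaining Gas1 difference was not tested.

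**Figure D3:**
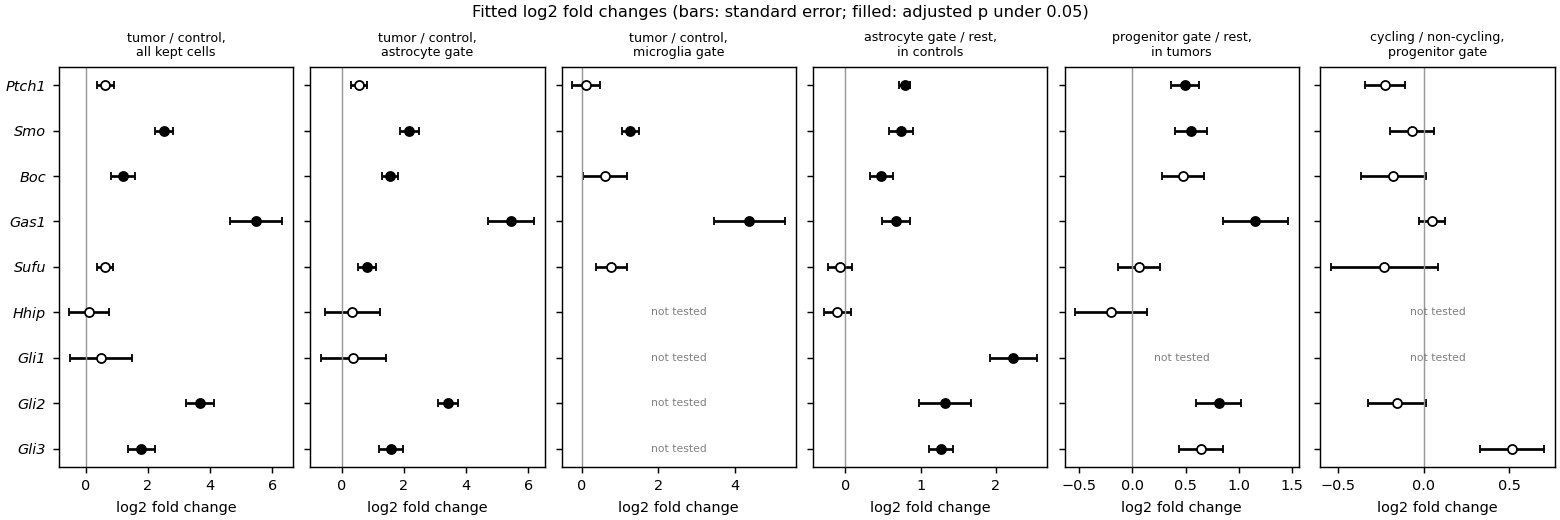
Fitted log2 fold change of each Hedgehog pathway gene (points, with bars of 1 standard error) in 6 comparisons, each with its own axis; filled points had an adjusted p under 0.05 in the edgeR quasi-likelihood test. Gas1, Gli2, Smo, Gli3 and Boc were higher in tumors over all kept cells and in the astrocyte gate, and in the last panel no member passed.

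In the other gates fewer members had enough UMIs to be tested, and one that is high in tumors could come into the test through its tumor counts, so nothing is read from how many passed there. In microglia and macrophages 2 of 5 tested members were higher, against 29.5% of 12049 genes: Gas1 (4.39 ± 0.94; adjusted p = 0.00259, edgeR) and Smo (1.28 ± 0.22; adjusted p = 0.0007, edgeR). Sufu (0.77 ± 0.41), Boc (0.60 ± 0.57) and Ptch1 (0.12 ± 0.36) did not pass. Smo was at 29.0, 17.5, 17.7 and 15.1 CPM in the gated control cells and at 34.8, 31.4, 40.4, 29.1 and 32.7 CPM in those of the tumors. In microglia clusters the values overlapped, at 36.2, 33.5, 32.8 and 26.4 CPM against 37.8, 28.1, 42.1, 19.9 and 27.6 CPM (0.34 ± 0.23; adjusted p = 0.27, edgeR), and 0 of 2 tested members (Smo and Ptch1) passed, where 41.0% of 8977 genes passed in either direction. One of these clusters held 490 control and 6 tumor cells, and the other 3 held 10, 87 and 0 control against 1234, 580 and 160 tumor cells, so that most cells of each group lay in different clusters. Gas1 in microglia clusters was at 11.1, 0, 7.57 and 5.67 CPM against 4.05, 41.5, 8.05, 53.9 and 26.8 CPM, and tumors 2, 4 and 5 were also those with the most Gas1 in free RNA. The part of free RNA in these values was not tested.

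In oligodendrocytes 1 of 2 tested members passed and was higher and Ptch1 (0.23 ± 0.23) did not, where 63.4% of 8080 genes passed in either direction. The member that passed was Hhip, the ligand-sequestering protein, at 25.1, 13.0, 24.9 and 15.1 CPM in controls and at 108, 57.9 and 115 CPM in tumors 1 to 3, the tumors with at least 20 such cells (2.66 ± 0.29; adjusted p = 5.1e-07, edgeR). The groups did not overlap. It rested on 11, 22, 19 and 25 UMIs in controls and 45, 29 and 29 in tumors. A UMI of Hhip was held by 6.20% of the 1145 control cells and 26.9% of the 279 tumor cells, or 1.67% and 9.45% after every cell was thinned to 1500 UMIs. In the microglia gate the shares were 2.43% and 0.537%. The held-out marker Mobp was 1.97 times higher inside than outside the oligodendrocyte gate in controls and 52.3 times in tumors, a ratio that also depends on the cells outside. In oligodendrocyte clusters Hhip was at 33.2, 26.0, 45.6 and 40.4 CPM in controls and at 104, 51.3, 118 and 56.9 CPM in tumors 1, 2, 3 and 5, again without overlap, and the difference was 1.38 ± 0.30 (log2, SE; adjusted p = 0.000648, edgeR). These were 2 clusters of unlike purity: one held 558 control and 11 tumor cells, with the oligodendrocyte gate on 52.9% of its gated cells, and the other 62 control and 270 tumor cells, with 99.1%. Cluster and group therefore cannot be told apart here either. Hhip free RNA was at 6.04 to 10.5 CPM in controls and 0.582 to 7.75 CPM in tumors, below the level in the clusters of every mouse. The barcodes behind these values had medians of 691 to 1338 UMIs in controls and 559 to 649 in tumors, and the part of free RNA in the Hhip difference was not tested.

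Gas1 also passed in oligodendrocyte precursors (3.34 ± 0.92; adjusted p = 0.013, edgeR), where 21.4% of 5349 genes were higher. The control side held 5, 1 and 1 UMIs of Gas1, so it came into the test through its tumor counts. The call was lost without control 3 (adjusted p = 0.061) or control 4 (adjusted p = 0.0605) in the same edgeR test. Of the precursor-gated cells of tumors 2 and 4, 40.1% and 58.2% held a UMI of the fusion or luciferase, and the larger of the 2 clusters in which that gate was commonest, with 749 tumor and 3 control cells, was a fusion-allele cluster. Ptch1 (-0.62 ± 0.35) did not pass there. Gas1 was also the 1 of 8 tested members to pass in neurons (4.64 ± 0.82; adjusted p = 0.0043, edgeR) against 7.34% of 14667 genes. Gli2 (1.73 ± 0.59; adjusted p = 0.0704, edgeR), Smo (1.02 ± 0.55), Hhip (-0.96 ± 0.60), Sufu (0.65 ± 0.32), Gli3 (0.63 ± 0.53), Boc (0.28 ± 0.35) and Ptch1 (0.20 ± 0.21) did not pass in neurons. Gas1 there was at 5.25, 4.34, 3.42 and 3.99 CPM in controls and at 12.5, 294, 18.3 and 66.9 CPM in tumors 1, 2, 3 and 5. The difference was 2.20 ± 0.46 (log2, SE) without tumor 2, where 15.1% of the neuron-gated cells held a UMI of the fusion or luciferase. Gas1 in free RNA of tumors 1, 2, 3 and 5 was at 14.8, 194, 44.0 and 88.5 CPM. Its part in the neuron values was not tested. Ptch1 was the single member tested in endothelial cells (-0.60 ± 0.36) and in neuroblasts (0.62 ± 0.47) and passed in neither, where 22.1% of 7054 and 50.6% of 6073 genes passed in either direction.

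The progenitor-marker gate (at least 3 of 8 markers such as Sox2, Nes, Fabp7 and Hes5) held 1997 tumor cells and 160 control cells. Its held-out markers did not bear the name out: in tumors Vim was 0.805 times, Sox9 1.01 times and Msi1 1.65 times the level of other cells. Between groups, Gas1 (5.91 ± 0.66), Boc (3.01 ± 0.87), Smo (2.91 ± 0.49) and Gli2 (2.59 ± 0.80) were higher in tumors, where 29.4% of 9397 genes were, and Gli3 (1.32 ± 0.71) and Ptch1 (0.85 ± 0.40) did not pass. The control side rested on 5, 2, 5 and 3 UMIs of these genes in 3 mice, so they came into the test through their tumor counts and nothing is read from how many passed. Boc and Gli2 no longer passed without control 2 or control 4, and had too few UMIs to be tested without tumor 2, tumor 4 or tumor 5. Gas1 was at 9.25, 0 and 9.17 CPM in controls 2 to 4 and at 622, 265, 363 and 223 CPM in tumors 2 to 5.

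Within tumors 2 to 5, the cells of this gate were set against all other cells of the same tumor. Of 8 tested members 4 were higher and 0 lower, against 10.0% of 14029 genes higher and 15.0% lower. Gas1 was higher by 1.16 ± 0.31, Gli2 by 0.81 ± 0.21, Smo by 0.55 ± 0.15 and Ptch1 by 0.50 ± 0.13 (log2, SE; adjusted p from 0.027 to 0.03, edgeR with tumor as a block). Gli3 (0.65 ± 0.21) and Boc (0.47 ± 0.20) did not pass, nor did Sufu (0.060 ± 0.20) or Hhip (-0.20 ± 0.34). Without tumor 2 no member passed, and without tumor 5 only 1 did. Gli1 had too few UMIs to be tested: 4 of the 1997 gated tumor cells held one, or 0.200% (exact 95% interval 0.0546% to 0.512%, counting error only). In the astrocyte gate 1.44% of 4228 tumor cells and 1.59% of 3027 control cells held a Gli1 UMI, at lower median depths of 4232 and 3893 UMIs a cell against 6497. In microglia the shares were 0.192% and 0.0759%. In the progenitor-marker gate of controls 3 of 160 cells held one, or 1.88% (exact 95% interval 0.388% to 5.38%). The tumors weigh unequally in these shares: tumor 4, with 832 of the 1997 cells, had 0 Gli1 UMIs in this gate and 0 in its 1671 astrocyte-gated cells, while tumor 1, with 33 Gli1 UMIs in the astrocyte gate, had 18 cells in this one. Of the same 1997 cells 72.7% held a Gas1 UMI, against 22.3% of microglia of the tumors.

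Cycling cells of this gate, with UMIs of at least 3 of 8 mitotic genes such as Mki67, were compared with the other cells of the gate in tumors 2, 4 and 5. Of 7 tested members 0 passed, where 18.9% of 10582 genes passed in either direction and 8.24% were lower. The widest difference was that of Gli3 (0.51 ± 0.19; adjusted p = 0.091, edgeR), followed by Sufu (-0.23 ± 0.31), Ptch1 (-0.22 ± 0.12), Boc (-0.18 ± 0.19), Gli2 (-0.16 ± 0.17) and Smo (-0.066 ± 0.13), and Gas1 was the closest to 0 (0.050 ± 0.076). Gli3 passed when Leiden clusters or fusion-allele clusters took the place of the gate. Cells with a UMI of the fusion or luciferase were likewise compared with cells without one in tumors 2 to 5. Of 7 tested members 0 passed, where 0.177% of 10171 genes did. From the widest difference down (log2, SE), Boc was at 0.48 ± 0.22, Smo at 0.37 ± 0.15, Gli3 at 0.35 ± 0.20, Gas1 at 0.33 ± 0.10, Sufu at 0.22 ± 0.31, Ptch1 at 0.089 ± 0.13 and Gli2 at 0.056 ± 0.20. Smo passed for these UMIs when fusion-allele clusters took the place of the gate. At an unadjusted p under 0.05, 927 genes of the whole table passed in this last comparison and 3478 in the cycling one, and a cell without such a UMI may still carry the allele.

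The other pathway genes, a list of 36, were described over all kept cells for context. The list and its roles were chosen with earlier results of these data known, so nothing is read from how many passed. Of 34 tested, 11 were higher and 7 lower in tumors, beside the 32.2% of all genes that were higher and the 29.3% that were lower; the counts by role below stand beside the same shares. Of the 3 ligands 1 could be tested: Shh fell by 3.63 on the log2 scale (SE 0.69; adjusted p = 0.00176, edgeR), from 4.66 ± 0.617 CPM (SD, n = 4; 336 UMIs) in controls to 0.394 ± 0.467 CPM (SD, n = 5; 19 UMIs). Of the control Shh UMIs, 317 lay in neuron clusters, which held 88.4% of the control RNA, and 17951 of the control and 1762 of the tumor cells. Shh was also lower within the neuron gate, at 4.39 ± 0.979 CPM (SD, n = 4; 198 UMIs) in controls and 0.389 ± 0.779 CPM (SD, n = 4; 2 UMIs) in tumors (-2.61 ± 0.76; adjusted p = 0.0394, edgeR). Shh came into this test and the one over all kept cells through its control counts. In neuron clusters its mean was 4.97 CPM in controls and 1.46 CPM in tumors. The gates of cells not known to make Shh showed like means, from 4.59 to 0.359 CPM in microglia and 4.60 to 0.391 CPM in astrocytes. In gated oligodendrocytes the mean went from 4.74 to 0 CPM, the 0 out of 1171741 UMIs. In clusters the control means were lower, going from 1.64 to 0.424 CPM in microglia, 1.53 to 0 CPM in oligodendrocytes and 3.81 to 0 CPM in astrocytes. The part of free RNA in the neuron values was not tested. Ihh and Dhh, the other ligands, had 28 and 24 UMIs in all tumors together. Of 5 genes of ligand release 2 were lower, Scube1 (-1.87 ± 0.34) and Scube3 (-2.96 ± 0.68), secreted carriers of Shh. Of the 3 other receptors 0 passed; Cdon, the relative of Boc, ranged from 1.56 to 99.5 CPM between tumors. Of 17 genes of the relay and cilium 4 were higher, Kif7 (1.41 ± 0.35), Stk36 (0.98 ± 0.37), Csnk1a1 (0.75 ± 0.25) and Prkaca (0.62 ± 0.23). In the same role 4 were lower, Gpr161 (-1.21 ± 0.46), Ift88 (-1.12 ± 0.30), Kif3a (-1.11 ± 0.15) and Btrc (-0.75 ± 0.13). Of 8 genes known as targets 7 were higher, a role that leaves out the members Ptch1, Hhip and Gli1, which did not pass. The cyclins Ccnd1 (4.21 ± 0.69) and Ccnd2 (2.18 ± 0.48) and Mycn (2.55 ± 0.55) are also driven by other pathways. The others were Foxf2 (3.15 ± 0.44), Foxf1 (3.02 ± 0.60), Nkx2-2 (1.97 ± 0.35) and Bcl2 (1.77 ± 0.32). The part of changed cell numbers in these rises was not tested. In the progenitor-marker gate within tumors, Mycn (1.29 ± 0.24), Sfrp1 (1.03 ± 0.28), Ccnd1 (0.93 ± 0.21) and Cdon (0.65 ± 0.18) were higher and Foxf2 (-4.49 ± 0.46) lower.

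The genes whose pattern was most like each member were taken from 13532 genes over 39 sums of gated cells in tumors, by Pearson correlation of log2 CPM plus a pseudocount of 10. These sums share mice and libraries, so the values are descriptions. Gas1 was most like Fgf3 (0.92), a fibroblast growth factor, and Gli2 most like Cbs (0.88), with Hes5 (0.85), a Notch target that is among the gate's markers, also in its 3 closest. Hhip was most like C030029H02Rik (0.91), Tmem125 (0.91) and S1pr5 (0.91), a lipid receptor of oligodendrocytes. Boc and Smo shared their leading gene, Mgst1 (0.86 and 0.77). Ptch1 was most like Kmt2c (0.81) and had Gli2 (0.77) among its 3 closest, the single case in which a member was among another's 3 closest. Between members, Gli3 with Gas1 (0.73), Gli3 with Boc (0.71) and Boc with Gas1 (0.70) followed, and the lowest value was that of Smo with Hhip (-0.39).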

How the data were processed

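The deposited matrices hold raw UMI counts per gene and barcode, which the authors made with Cell Ranger (version 7 in the submitters' processing notes; the file headers name 6.1.2) on mm10 with added reporter sequences. The 9 members and all gene lists were chosen with earlier results of these data known.

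The 10000 deepest barcodes of each library were screened and those with 200 to 6000 genes kept, less the higher-mitochondrial component of a 2-component Gaussian mixture and Scrublet doublets (0.8% per 1000 cells, scanpy 1.11.5). The mixture cut at unlike levels: removed barcodes averaged 3.67% and 4.84% mitochondrial in tumors 4 and 5, and kept cells 10.6% in tumor 1. A limit of 10% kept more cells in tumors 3 to 5 (4291, 9177 and 9138 against 1722, 5099 and 3644). It kept fewer in the other libraries (1254 against 2366 in tumor 1). Cells were gated by at least 3 of 8 markers; Leiden clusters (resolution 1) served as an alternative. Counts were summed per mouse and tested with edgeR 4.0.16 (quasi-likelihood, TMM, filterByExpr, Benjamini-Hochberg over all genes tested, threshold 0.05), using mice with at least 20 cells of a gate and sums of the same mouse blocked. The SE printed with an edgeR fold change is its absolute value divided by the square root of the F statistic. It is not an error given by the fit and need not match the p-value exactly. Shares have exact 95% binomial intervals, and floors are 3 counts; both cover counting error only. Every tested member was named in every main comparison, and other pathway genes that passed over all kept cells and in the progenitor-marker gate within tumors. In the alternatives only some members were named. Genes singled out besides were chosen after their values were seen. The code was tested on simulated counts. Replicates all differed beyond sampling noise (chi-square per degree of freedom 4.36 to 371 over 16 pairs). Alternatives were DESeq2 1.42.0, library size scaling, no filter, the replicate block, leaving out each mouse, and other cell filters and gates; 6 were added after seeing the data.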

Additional observations from a re-analysis of the deposited data

Results flagged for a closer look

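Of 136 sets of 4 or 5 mice examined (a member in 1 class of cells in 1 group), 10 held a mouse whose gap to its nearest neighbour was large for the range of the set; chance alone flags about 1 in 20 such sets, here about 6.8. All values are CPM, and the explanations were not tested. In tumor 5 Gli2 was high in the progenitor-marker gate (36.9), as was Hhip there (15.3) and in the astrocyte gate (22.4). In tumor 2 Boc was high in gated neurons (17.2) and Gli3 in gated oligodendrocyte precursors (33.1). In tumor 1 Gli1 was high in the fusion-allele clusters (8.38, on 8 UMIs). Among controls, Boc was 0 in gated oligodendrocytes of control 1, where 3 UMIs would be 6.84, and Gli3 was high in the neuron clusters of the same mouse (5.82). Gas1 was low in the neuron clusters of control 3 (3.32), and Gli3 was low in the astrocyte clusters of control 2 (34.2).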

How the results depend on the processing

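Over all kept cells Gas1, Gli2, Gli3 and Smo passed in 17 of 17 alternatives and Boc in 14 of 17. Leaving out 1 mouse gave 4 to 6 members passing there. The same range was 0 to 1 in oligodendrocyte precursors and in neuroblasts (1 without tumor 3), 2 to 4 in the progenitor-marker gate between groups, 0 to 5 for that gate within tumors, 5 to 6 in the astrocyte gate between groups, 2 to 3 in microglia, and 4 to 6 for the astrocyte gate within controls.

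Counts of members passing changed with the gate: Leiden clusters gave 0 in microglia (2 tested), 3 in astrocytes, 1 for the progenitor-marker gate within tumors and 1 for cycling cells (Gli3); the astrocyte clusters gave 1 between groups; the fusion-allele clusters gave 6 for the progenitor-marker gate within tumors, 1 for cycling cells (Gli3) and 1 for cells with a fusion UMI (Smo); a gate of at least 2 markers gave 3 for astrocytes within controls, 6 in the progenitor-marker gate between groups and 3 in microglia, and one of at least 4 gave 2 in neurons and, like library size scaling, 5 in astrocytes between groups. With no filter on low counts 5 members passed in microglia, 6 in the progenitor-marker gate between groups, 1 in endothelial cells, 3 in oligodendrocytes and 2 in neuroblasts. DESeq2 gave 2 in neurons and 4 for astrocytes within controls, where a mitochondrial limit of 10% also gave 4. The causes were not tested.

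Replicate numbers did not pair the mice: deviations of same-numbered mice correlated at 0.063, 0.033, 0.0033 and 0.052 over 17227 genes. A replicate block between groups left 4 members passing over all kept cells, with Boc at 0.94, and 5 in the astrocyte gate. Without the block of each tumor's own sums 0 members passed for the progenitor-marker gate, and 5 for astrocytes within controls.

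Changes of sign (log2), all in values that did not pass in the main test but for Gli3 in the astrocyte gate, were these. Over all kept cells, Gli1 was -1.11 with the replicate block, -0.45 (without tumor 1) to 0.88 on leaving out 1 mouse, and -0.044 without neuron-gated cells; Hhip was -0.065 with library size scaling, -0.74 with the block, -0.35 (without tumor 5) to 0.47 likewise, and -0.33 without neuron-gated cells. In the astrocyte gate between groups, the block gave -1.15 for Gli1 and -1.45 for Hhip, and leaving out 1 mouse gave -0.61 (without tumor 1) to 0.84 for Gli1 and -0.997 (without tumor 5) to 0.79 for Hhip. A gate of 4 markers gave -0.44 for Gli1, -0.15 for Ptch1 and -0.38 for Hhip; Leiden clusters gave -2.47 for Gli1, -0.53 for Gli3, -0.99 for Ptch1 (which passed; adjusted p = 0.0206, edgeR) and -0.62 for Hhip; and astrocyte clusters gave -0.38, -0.44 and -0.48 for Gli1, Gli3 and Ptch1. Within tumors, Sufu was -0.023 with library size scaling and -0.034 (without tumor 3) to 0.19 on leaving out 1 mouse, and Boc -0.12 in Leiden clusters. Within controls, leaving out 1 mouse gave -0.29 to 0.051 for Sufu and -0.21 to 0.037 for Hhip, both highest without control 2; Sufu was 0.021 with the mitochondrial limit and 0.18 with a gate of 2, and Hhip 0.54 with a gate of 4, 0.62 in Leiden clusters and 0.64 in astrocyte clusters.

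Library size scaling moved the median of all genes from 0.043 to -0.19 over all kept cells, 0.11 to -0.36 in microglia, 0.024 to -0.17 in astrocytes, -0.079 to -0.41 in oligodendrocytes, 0.098 to -0.20 in the progenitor gate, 0.0038 to -0.20 in neuroblasts and 0.046 to -0.092 in endothelial cells. It moved the share of calls that were higher from 53.7% to 30.6% in microglia, 53.7% to 40.3% in endothelial cells, 47.2% to 32.6% in oligodendrocytes, 51.5% to 41.1% in neuroblasts, 50.8% to 61.0% in neurons, 40.1% to 28.9% for the progenitor gate within tumors and 60.0% to 35.9% for astrocytes within controls.

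Counts over all genes moved too: for the progenitor gate within tumors from 3513 to 697 without the block, 1492 without tumor 2, 2178 without tumor 5 and 5380 in fusion-allele clusters; for cycling cells from 1997 to 881 with DESeq2, 242 without the block, 1305 without tumor 4, 751 in Leiden and 3205 in fusion-allele clusters; for fusion UMIs from 18 to 0 without the block and 557 in fusion-allele clusters (2 to 134 otherwise); for astrocytes within controls from 1732 to 623 with DESeq2, 626 without the block, 1114 without control 2, 628 with the mitochondrial limit, 3012 with a gate of 4, 5943 in Leiden and 5864 in astrocyte clusters; for neurons from 2119 to 3287 with DESeq2, 538 with the block, 786 to 884 without any 1 control and 1239 with a gate of 2. Between groups they went from 6618 to 3678 (microglia), 7558 to 4663 (astrocytes) and 5122 to 3056 (oligodendrocytes) in Leiden clusters, 7558 to 2413 in astrocyte clusters, 1558 to 739, 869 and 772 in endothelial cells without controls 2, 3 and 4, 2278 to 3491 with no filter, 1419 without control 3 and 3600 with a gate of 2 in precursors, and 3071 to 1910 with the block and 4731 with a gate of 2 in neuroblasts. Not run, for want of cells, were endothelial cells under the mitochondrial limit, precursors under a gate of 4, and progenitors and neuroblasts under a gate of 4 and Leiden clusters. Gli1 had few UMIs, 111 in controls and 93 in tumors.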
